A study of Rattus norvegicus and synthetic construct with 4 samples.

Results

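The elements described here are oligonucleotides from the start regions of human genes for cytosolic and mitochondrial chaperones. An element was a member when its midpoint in hg19 lay within 2 kb of the position listed for the start of 1 of 22 chaperone genes, with these positions given in whole kilobases. The rule uses position and no activity, but an element also had to be in the count table, which holds only barcodes with RNA in at least 1 library. It took 18 of the 3378 elements in the count table, at 15 of the 22 genes. HSP90AB1 had 3 counted elements, HSPH1 had 2, and each of the other 13 genes had 1. A further 7 elements at the listed genes were paired with barcodes but had none in the count table. These included the only elements of CCT3, CCT4 and HSP90AA1, which had 2, 5 and 1 paired barcodes. For HSPD1, CCT6A, FKBP4 and AHSA1, 0 elements were found within the limit in the tables used here. A human gene annotation was not used here, so the members are placed by distance alone, and whether one covers an exon or an intron was not examined.

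The series used STARR-seq, a reporter assay that reads the RNA made from plasmids carrying a candidate sequence against the plasmid DNA put into the cells. The sequences were 198 bp long and had been picked from sites of transcript initiation in human pancreatic islets, mapped by CAGE. The cells were INS1 832/13, a rat insulinoma line that serves as a beta cell model, so human sequences were read by rat factors and outside their chromosomal site. There were 2 groups, the 3 RNA libraries, each from 25000000 cells taken 24 h after electroporation with 10 ug of plasmid, and the 1 library of the plasmid DNA itself. The labels name no treatment. Activity is given as normalized RNA over normalized plasmid DNA counts, in multiples of the centre that the TMM normalization sets for the whole library (1 is the centre). The centre is not a control sequence, and a value below it is not repression.

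Molecular chaperones bind unfolded or partly folded proteins and help them reach their working form. In the cytosol, the ring-shaped chaperonin TRiC, built from the CCT subunits and TCP1, encloses actin, tubulin and other clients. HSP70 proteins bind exposed stretches of a client under the control of J-domain partners and nucleotide exchange factors, and HSP90 takes over later clients through adaptor proteins. Many of these genes are expressed at a high level in all cells, and several are also induced by heat shock factor when proteins misfold.

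Each plasmid was identified by a random barcode of 16 bases, and the barcodes are the sequences that the counts were read from. Those of CCT7 are shown in full because every one of them carried RNA in quantity, next to the top 3 barcodes of HSPA4 and CCT2, the other active members, and both barcodes of CCT8, whose high mean rested on them alone. They are in lower case throughout, read as deposited, with no part singled out, and are numbered by their RNA counts over the 3 libraries.
CCT7 barcode 1: ttgctcatgacattag
CCT7 barcode 2: gtcgttctttgcagcg
CCT7 barcode 3: taatacaccactctag
CCT7 barcode 4: tagttaattgggagcc
CCT7 barcode 5: acgtattcggtgtcac
CCT7 barcode 6: tatatcttagatagct
HSPA4 barcode 1: ctgcatattagtgatt
HSPA4 barcode 2: ttcaaattcttacaga
HSPA4 barcode 3: tccctgccaaattact
CCT2 barcode 1: ggcatcaagcatgatt
CCT2 barcode 2: ttcttggctcatcaaa
CCT2 barcode 3: tcgcaagcttgtcagg
CCT8 barcode 1: gtttaacgacggtaaa
CCT8 barcode 2: gttgaaatttgtggtg

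Among the chaperone elements, 3 gave RNA above the library's centre in these beta-like cells and 15 were not told apart from it. The active elements were those of the TRiC subunit genes CCT7 and CCT2 and of HSPA4, at 8.37, 2.28 and 3.92 times the centre. Called here means an adjusted p under 0.05 by edgeR (quasi-likelihood fit, Benjamini-Hochberg over all 3378 elements), and 8.88% of all elements were called above the centre. A count of 3 in 18 is a share of 16.7%, and with so few elements it is not read as different from that background. No member was called below the centre, nor was any element of the table (0% called). At an unadjusted p under 0.05, the same 3 members were above and 0 below, against 13.5% and 0.77% of all elements. In all 3 RNA libraries 3 members lay above 1, against 25.8% of all elements, and 5 members lay above it in 0 libraries, against 29.4%.

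The 18 elements were carried by 143 barcodes, which held 4523 plasmid DNA counts and 898, 896 and 1050 RNA counts in RNA replicates 1, 2 and 3. The whole table held 1079728 DNA counts and 211117, 197554 and 218571 RNA counts. The median member had 4 barcodes, with a range from 2 to 32, against a median of 6 over all elements. Since 10 of the 18 members had 2 to 4 barcodes, most single values are imprecise. The 3 called elements held 73.7% ± 1.34 (SD, n = 3) of the members' RNA counts and 38.9% of their DNA counts. They were called on these same counts, so the larger RNA share follows from the call and is only a description.

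The TRiC elements ranged from 0.824 to 8.37 times the centre. Of the 5, 2 were called above it, against 8.88% of all elements. A count from so few elements is not read as different from that background. The CCT7 element, at chr2:73461330-73461527, had the highest mean of the members. Its ratios in RNA replicates 1, 2 and 3 were 9.88, 4.31 and 10.9, so replicate 2 was the low one and all 3 were well above 1. They came from 183 DNA counts and 211, 88 and 240 RNA counts on 6 barcodes. The mean was 8.37 ± 3.55 (SD, n = 3) and the log2 ratio 3.06 ± 0.54 (SE; adjusted p = 7.64e-06, edgeR), with a 95% interval from 3.97-fold to 17.6-fold. Only 60 of the 3378 elements had a higher log2 ratio. In replicate 2 the elements of CCT8 and HSPA4, at 9.90 and 5.07, were higher than CCT7, and the intervals of both overlap its own.

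All 6 barcodes of CCT7 reached 5 or more RNA counts in at least 2 libraries. Barcode 1 had 47 DNA counts and 60, 13 and 92 RNA counts. Barcode 3, with only 12 DNA counts, had 52, 13 and 34 RNA counts. The activity was thus spread over separately made plasmids, and the top barcode held 30.6% of the element's RNA counts. Without the top barcode of every element, the log2 ratio of CCT7 was 3.37 (adjusted p = 6.29e-06, edgeR). The counts were normalized anew after every element lost its top barcode, and the median of all elements was then -0.18. The rise from 3.06 is thus not read as higher activity of the remaining CCT7 barcodes.

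The CCT2 element, at chr12:69979150-69979347, had the most barcodes of the members, 32, and the least spread between libraries. Its ratios were 2.33, 2.20 and 2.32, from 1036 DNA counts and 282, 254 and 289 RNA counts. The mean was 2.28 ± 0.0756 (SD, n = 3), the log2 ratio 1.19 ± 0.36 (SE; adjusted p = 0.0173, edgeR), and the 95% interval 1.39-fold to 3.74-fold. The steadiness of the sum did not extend to single plasmids. CCT2 barcode 1 had 22, 4 and 44 RNA counts and barcode 3 had 37, 11 and 16. Of its 32 barcodes, 21 reached 5 counts in at least 1 library and 3 did so in all 3. The intervals of CCT7 and CCT2 do not overlap, and CCT7 was higher in all 3 libraries, but their difference was not tested.

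The CCT8 element, at chr21:30445886-30446083, had the second highest mean of the members without passing the test. Its ratios were 5.41, 9.90 and 0.657, with 24, 42 and 3 RNA counts over 38 DNA counts. The mean of 5.32 ± 4.62 (SD, n = 3) rested on 2 barcodes, which carried RNA in different libraries. Barcode 1 had 1, 38 and 3 counts, and barcode 2 had 23, 4 and 0. On the log2 scale it was 2.40 ± 1.78 (SE; adjusted p = 0.697, edgeR), with an interval from 0.455-fold to 61.2-fold.

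The elements of CCT5 and TCP1 were not called. The CCT5 element, at chr5:10250318-10250515, had ratios of 0.650, 0.846 and 1.05 over 17 barcodes and 540 DNA counts. Its interval from 0.310-fold to 2.32-fold does not reach the value of CCT7. TCP1, the gene that gave the complex its name, had its counted element at chr6:160210872-160211069. The ratios of this element were 0.140, 0.147 and 2.18, where 1 of its 2 barcodes gave 15 of the 16 RNA counts in replicate 3. At 61 DNA counts, 3 RNA counts would give a ratio of 0.421 in replicate 1, so the low values there are not resolved from one another.

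The HSP70 system was represented by 7 elements at 6 genes, and the range was from 0.238 to 3.92 times the centre. Of these elements 1 was called above the centre, against 8.88% of all elements. The called element belonged to HSPA4, an HSP110-type protein that releases nucleotide from HSP70, and lay at chr5:132387606-132387803. Its ratios were 2.72, 5.07 and 3.97, from 539 DNA counts and 171, 305 and 257 RNA counts on 20 barcodes. All 3 libraries were above 1, with replicate 1 the lowest. The mean was 3.92 ± 1.18 (SD, n = 3) and the log2 ratio 1.97 ± 0.41 (SE; adjusted p = 0.000196, edgeR), with an interval from 2.21-fold to 6.94-fold.

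Of the 20 barcodes of HSPA4, 14 reached 5 counts in at least 1 library and 11 in at least 2. HSPA4 barcode 1 had 30, 36 and 57 RNA counts, and barcode 2, with 16 DNA counts, had 38, 17 and 50. The top barcode held 16.8% of the RNA counts.

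HSPH1, the other HSP110-type exchange factor among the members, had a pair of low elements that share 86 bp. The one at chr13:31735918-31736115 was the lowest of all members at 0.238 ± 0.134 times the centre (SD, n = 3), with ratios of 0.320, 0.0837 and 0.311 from 4, 1 and 4 RNA counts. The other, at chr13:31736030-31736227, had ratios of 1.11, 0.0614 and 0.171, and 16 of its 19 counts in replicate 1 came from 1 barcode. Each had 4 barcodes. In replicate 2 each rested on 1 RNA count, below the 3 counts taken as a floor, so no order is read for the pair. Their intervals, 0.0228-fold to 2.56-fold and 0.0412-fold to 4.94-fold, both hold the centre.

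The elements of the J-domain genes, whose products deliver clients to HSP70 and stimulate its ATPase, were not called. DNAJA1, at chr9:33024982-33025179, had ratios of 0.389, 1.27 and 1.05 over 11 barcodes. DNAJB1, at chr19:14628868-14629065, had ratios of 2.33, 0.192 and 2.08 over 6 barcodes, with 38, 3 and 35 RNA counts. Replicate 2 was far below the other libraries for DNAJB1, and its mean of 1.53 ± 1.17 (SD, n = 3) had an interval from 0.226-fold to 10.4-fold. One barcode held 55.3% of its RNA counts.

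ST13, the cochaperone Hip that holds HSP70 in its client-bound state, had an element at chr22:41252545-41252742 with ratios of 0.970, 0.297 and 0.874 over 12 barcodes. All 3 were below 1, and the interval was 0.178-fold to 2.86-fold. HSPA8, the constitutive cytosolic HSP70, had an element at chr11:122932743-122932940 with ratios of 0.323, 1.69 and 0. It rested on 2 barcodes and 53 DNA counts, and the 0 counts of replicate 3 allow a ratio of up to 0.471 (3 counts, counting error only).

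The HSP90 system had 4 counted elements at 2 genes, of which 0 were called, against 8.88% of all elements called above the centre. Of the 4, 3 lay below 1 in all 3 libraries, while 29.4% of all elements lay above 1 in 0 libraries. The HSP90AB1 elements among these 3 share 98 bp, and the 4 elements had only 3 to 7 barcodes each. With so few elements, the count is not read as different from the background. STIP1 encodes Hop, the adaptor that joins HSP70 to HSP90. Its element, at chr11:63953567-63953764, had ratios of 0.283, 0.395 and 0.184 over 7 barcodes and 272 DNA counts. The mean was 0.287 ± 0.106 (SD, n = 3), the lowest of the members with at least 5 barcodes. It had only 9, 12 and 6 RNA counts. On the log2 scale it was at -1.80 ± 1.52 (SE; adjusted p = 0.777, edgeR), and the interval reached from 0.0354-fold to 2.34-fold.

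HSP90AB1, the constitutive cytosolic HSP90, was covered by 3 elements on chromosome 6, each starting 100 bp after the one before it and sharing 98 bp with it. The first, at chr6:44214739-44214936, had ratios of 0.212, 2.10 and 0.308. The second, at chr6:44214839-44215036, had 0.857, 0.119 and 0.611. The third, at chr6:44214939-44215136, had 0.630, 0.310 and 0.685. In replicate 2 the first element was the highest of these, with all 19 RNA counts from 1 barcode. In replicates 1 and 3 it was the lowest, but on only 2 and 3 RNA counts, at or below the floor of 3. No order is read for these elements. The 3 elements had 4, 3 and 4 barcodes, and their intervals reached up to 11.3-fold, 5.50-fold and 4.02-fold.

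The mitochondrial and small heat shock members each had 1 element. HSPA9, the HSP70 of the mitochondrial matrix, which also pulls proteins through the import channel, had its element at chr5:137910971-137911168. Its ratios were 0.0654, 1.09 and 0.381, from 1, 16 and 6 RNA counts on 3 barcodes. HSPB1, the small heat shock protein that keeps unfolded clients from aggregating, had its element at chr7:75931864-75932061 with ratios of 0.325, 2.04 and 0.527 on 4 barcodes. In both, replicate 2 was the high library, and a single barcode gave 13 of its 16 counts for HSPA9 and 17 of its 18 for HSPB1.

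The called and uncalled members differed in the share of their barcodes that reached 5 RNA counts in a library. This is part of the same readout and is given as a description. Of the 58 barcodes on the called elements, 41 (70.7%) reached 5 RNA counts in at least 1 library and 28 (48.3%) in at least 2. Of the 85 barcodes on the uncalled elements these were 29 (34.1%) and 3 (3.53%). Over all barcodes of the table they were 45.2% and 16.7%. On the uncalled members, 26 of these 29 barcodes reached 5 counts in 1 electroporation only. Member barcodes with such a count had a mean GC content of 39.7% and those without one 42.5%, against 41.2% and 42.7% in the whole table, and the part of barcode composition in the ratios was not tested.

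The typical activity of the chaperone elements depended on which were counted. The median log2 ratio was -0.25 (0.839-fold) over the 18 members and -0.03 over all 3378 elements. Without RNA replicate 1 the members' median was 0.02, so its side of the centre was not stable. Within RNA replicates 1, 2 and 3 the members' median ratio was 0.640, 0.970 and 0.671, against 0.908, 0.926 and 0.900 for all elements. For the 8 members with at least 5 barcodes the median log2 ratio was 0.23, with 3 called (37.5%), against -0.01 and 11.7% of the 2223 elements of that kind. For the 10 members with 2 to 4 barcodes it was -0.73, with 0 called, against -0.08 and 3.38% of 1155 elements. A barcode is in the table only with an RNA count in at least 1 library, so the number of barcodes itself depends on activity. Of the barcodes paired with a counted member, 51.3% were in the table, against 42.2% for all counted elements. Among single members this share ran from 23.5% for the second HSPH1 element (4 of 17) to 100% for TCP1 (2 of 2).

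For the 15 uncalled members a moderate difference from the centre could not be detected at this depth. The intervals of all 15 held 2-fold above the centre, and 10 held 4-fold. The rank of an element with few barcodes is likewise loose. Of the 423 elements with 20 or more barcodes, 33 were higher than HSPA4 and 89 higher than CCT2. Of the 1080 with 5 to 9 barcodes, 22 were higher than CCT7 and 1015 higher than STIP1.

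The calls differed in how well they held. When every RNA count of 1 to 4 that a barcode had in a library was put at 0, 0 of the 18 members were called, against 3.4% of all elements. CCT7 then had a log2 ratio of 2.61 (adjusted p = 0.0516, edgeR). The median of all elements was -0.85 in this setting, and CCT7 lay 3.46 above it, against 3.09 in the reported fit. Without RNA replicate 2 only CCT7 was called, against 5.71% of all elements, while HSPA4 had a log2 ratio of 1.74 (adjusted p = 0.0704, edgeR) and CCT2 of 1.22 (adjusted p = 0.0912, edgeR). CCT2 was also not called without RNA replicate 3, at a log2 ratio of 1.18 (adjusted p = 0.0905, edgeR). Its ratio thus stayed close to the 1.19 of all libraries while the call was lost. Scaling by library totals instead of TMM moved the median of all elements by -0.73, and CCT2 then had a log2 ratio of 0.45 (adjusted p = 0.505, edgeR). With either scaling CCT2 lay 1.22 above the median of all elements.

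No counted element lay close to the 2 kb limit on either side. The farthest members were CCT7, whose midpoint lay 1.43 kb from its listed position, and the third HSP90AB1 element, at 1.04 kb. The nearest counted elements beyond the limit lay 16.8 kb from the listed position of HSPD1, at 1.35 ± 0.0717 times the centre, and 17.8 kb from that of FKBP4, at 2.10 ± 0.557 times (SD, n = 3 for both).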

How the data were processed

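The authors deposited raw counts per barcode, unnormalized as judged from their values, and a list that pairs barcodes with elements. Coordinates are hg19, per the submitters' processing notes, and element starts were converted to count from 1. The matching and filtering of barcodes and any use of molecular identifiers were not given in the sources used here. Each counted barcode has at least 10 DNA counts and RNA in at least 1 library. Groups came from the sample titles.

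The barcode counts of an element were added up, and RNA was tested against plasmid DNA over all 3378 elements with edgeR 4.0.16 in R 4.3.3 (TMM, quasi-likelihood, Benjamini-Hochberg at 0.05). The SE is the absolute log2 ratio over the root of the F statistic, and 95% intervals use it with the fit's degrees of freedom. The SDs are over the RNA libraries and leave out the error of the 1 DNA library. SEs and intervals include that error only through a spread fitted over DNA and RNA libraries together. The 1 DNA library gives no estimate of its own spread. Replicates are separate electroporations of 1 plasmid library. Members and lists were chosen with earlier results of these data known. All members are named, and single barcodes are shown as the top ones of an element. A planned list of other chaperone genes needs human gene starts and was not analysed here. The alternatives used DESeq2 1.42.0, limma 3.58.1, other normalizations and filters, and fewer replicates.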

Additional observations from a re-analysis of the deposited data

How the results depend on the processing

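The number of members called above the centre was 3. It fell to 0 with RNA counts of 1 to 4 set to 0, against 3.4% of all elements. Among the 9 members within 0.5 kb it was 1, against 8.88% of all elements in the same fit. It ranged from 1 to 3 when an RNA replicate was left out, against 5.71% to 8.56% of all elements. In the other 8 alternatives it was 2 or 3, while the share of all elements called above ran from 5% with library totals to 15.1% with limma-voom and 23.2% of the 1806 elements to which DESeq2 gave an adjusted p, which 11 members lack. The number called below was 0 in all alternatives, against 4.03% of all elements with limma-voom, 1.48% with library totals and 0.71% with the median over barcodes. The median log2 ratio of the members, -0.25, was -0.99 with library totals, -0.69 with limma-voom, 0.20 in the 8 members with at least 5 barcodes and -1.16 with low RNA counts set to 0. The median of all elements moved too, to -0.77, -0.32, -0.04 and -0.85. Leaving out a replicate gave -0.46 to 0.02.

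In 16 of 206 refits an uncalled member changed sign, and none of these passed the threshold. Leaving out 1 RNA replicate at a time gave -1.93 to 0.24 for HSP90AB1's first element, -2.76 to 0.22 for TCP1, -1.22 to 0.33 for HSPB1, -0.48 to 0.18 for DNAJA1 and -2.60 to 0.0059 for HSPA8. With barcodes of at least 20 DNA counts, HSP90AB1's first element was at 0.84 and HSPB1 at 0.47. HSPB1 was at 0.023 with RLE size factors and 0.024 with DESeq2. HSPA8 was at 0.11 with the median over barcodes and 0.19 without the top barcode. DNAJB1 was at -0.13 with library totals and -0.077 with low counts set to 0. In 4 of the 16, DNAJB1 in these settings and HSPB1 with RLE and DESeq2, the median of all elements moved as well, and the member kept its side of that median (DNAJB1 at 0.64 and 0.77 above it, 0.65 in the reported fit). For the others the cause was not tested.

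CCT7 kept its call in 11 of 12 alternatives, HSPA4 in 10 and CCT2 in 6. CCT2 also lost it at nearly the same log2 ratio, 1.20 with the median over barcodes (adjusted p = 0.0756, limma) and 1.17 with the DNA minimum (adjusted p = 0.103, edgeR). No paired analysis was possible because the plasmid DNA has 1 library and shares fewer than 2 replicate numbers with the RNA. Depth limits what is detectable in members with few barcodes.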
